A study of Mus musculus with 2 samples.

Results

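The gp130 cytokine pathway was followed through 10 genes that were chosen by name, out of 19465 genes measured, with earlier results of these data known. They are 5 ligands (Il6, Il11, Lif, Osm and Ctf1), 3 receptor chains (Il6st, which encodes gp130 itself, Osmr and Lifr), the signal transducer Stat3 and the feedback inhibitor Socs3. All 10 were found in the data, and 9 of them, all but Il6, had at least 20 unique molecular identifiers (UMIs, each counted as 1 captured molecule) over both sections together.

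Spatial gene expression was measured in formalin-fixed, paraffin-embedded mouse heart with a probe-based Visium assay, in 1 section of 5 µm from each of 2 genotypes. The control heart came from an α-MHC-MerCreMer+/− mouse, which carries a tamoxifen-dependent Cre recombinase under the cardiomyocyte promoter α-MHC. The transgenic heart came from an α-MHC-MerCreMer+/− hTOP2B LSL/− mouse, which carries the same Cre and, in addition, a human TOP2B transgene behind a loxP-flanked stop, driven by the CAG promoter once Cre has removed the stop. Both genotypes were given a single intraperitoneal tamoxifen dose of 80 mg/kg, so that Cre and tamoxifen are shared and the transgene is not. The methods give an age of 6 weeks at the single dose for the transgenic model and controls that were siblings of that age. The time between tamoxifen and collection of these 2 hearts is not given in the sources used here.

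The control section held 1256 spots and 14376300 UMIs, and the transgenic section 924 spots and 12953389 UMIs. The median depth was 11336 UMIs per spot in the control and 14531 in the transgenic section. With 1 section per genotype there is no replicate error, and genotype, mouse, section and library cannot be told apart. All intervals are 95% intervals that cover counting error only. Levels are given as UMIs per 1000000 UMIs of the section (CPM), and since each gene is read by its own probes, levels are compared between sections and not between genes. Cardiomyocyte genes made up 7.44% of control UMIs and 4.12% of transgenic UMIs, and none of the 9 markers measured was at 0 in either section. Of these 9 markers 8 were lower in the transgenic section and 1, Tnnt2, was higher (log2 ratio 0.17). A list of genes of stressed cardiomyocytes made up 0.14% of control and 4.08% of transgenic UMIs. A spot covers several cells, so fewer cells of a type, less RNA per cell and a switch between cardiomyocyte genes cannot be told apart. Spots in which erythroid genes (hemoglobins and Alas2) made up over 10% of UMIs, called blood-rich here, numbered 8 in the control and 54 in the transgenic section, so results over tiles and over spots rich in cell type genes are given with and without them where they differ. Mouse Top2b was at 1531 and 1318 UMIs (log2 ratio of transgenic over control -0.07, interval -0.17 to 0.04). The transgene is human, and whether the mouse probes read it is not stated, so this value checks nothing.

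Cytokines of the interleukin-6 family share gp130 as their signal-transducing chain. IL-6 and IL-11 first bind a receptor of their own and then pair gp130 with itself, LIF and cardiotrophin-1 join gp130 to LIFR, and oncostatin M in the mouse joins it mainly to OSMR. The bound receptors activate Janus kinases, which phosphorylate STAT3, and STAT3 induces SOCS3, an inhibitor that binds gp130 and shuts the signal off. In the heart the pathway is known for cardiomyocyte survival, hypertrophic growth and fibrosis. STAT proteins bind palindromic sites of the form TTCNNNGAA. This motif was searched on both strands in RefSeq promoter windows that run from 250 bases before to 50 bases after each gene's start. Windows were found for 9 of the 10 genes, all but Osm, and of their 11 windows only that of Socs3 held the motif. Of all 32851 windows of that length, 8.30% held it. The stretch is shown because Socs3 is the STAT3-induced inhibitor among the 10 genes, and the capitals mark the motif, which begins 154 bases before the start of Socs3 (chr11:117969501-117969530, minus strand, GRCm38.p6):
Socs3: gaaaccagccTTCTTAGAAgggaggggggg
The match describes the letters only, and a window without them says nothing about binding.

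Between the sections the 10 genes did not move as 1 group. The ligand Ctf1 was lower in the transgenic section, the receptor chains Osmr and Il6st, the transducer Stat3 and the inhibitor Socs3 were higher, Lifr was close to equal, and the other ligands were near the detection limit of the assay, with Il11 and Lif higher. Of the 9 genes with at least 20 UMIs, 7 were higher and 2 lower in the transgenic section, where 9636 of all 15236 genes with at least 20 UMIs were higher. 4 were at least 2-fold higher (Il11, Lif, Osmr and Socs3), where 13.7% of all these genes were, and 1 was at least 2-fold lower (Ctf1), where 5.61% of all genes were. Il11 and Lif, with 12 and 7 UMIs in the control, reached 20 UMIs only through the transgenic section. The count of 4 is thus partly set by the filter. The median log2 ratio of the 9 genes was 0.74, and that of all 15236 genes was 0.20. The former is the ratio of Osm, which was counted only 8 and 12 times and had an interval from -0.68 to 2.23. The 2-fold mark of Osmr was not kept when the sections were scaled by edgeR's TMM factors or DESeq2's size factors, which gave it a log2 ratio of 0.89 under both.

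**Figure D1:**
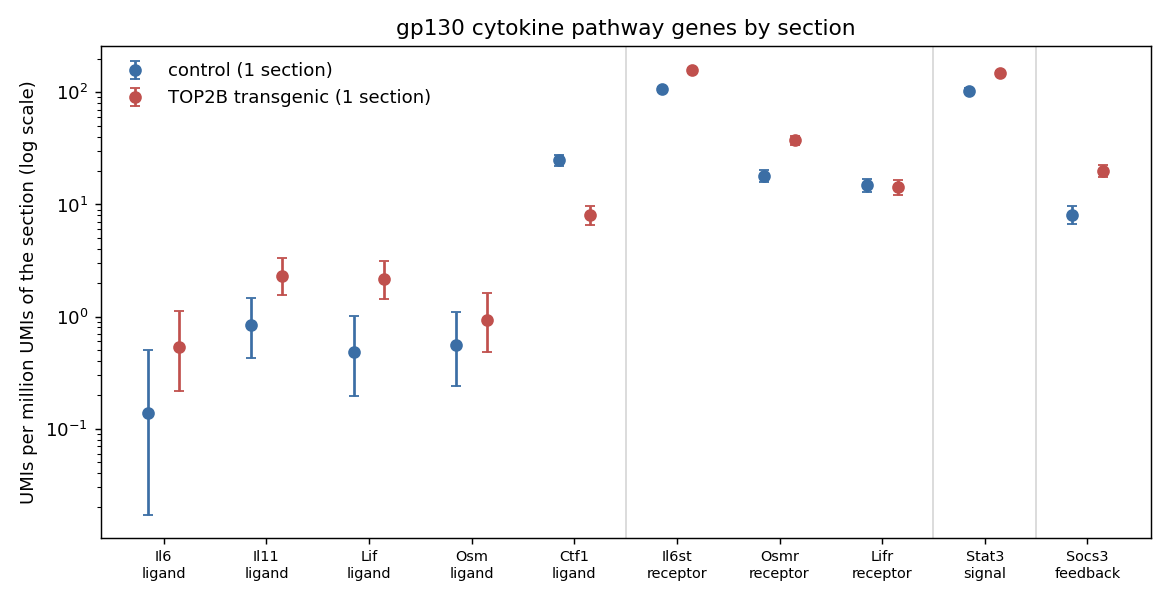
Level of each gene in CPM, on a log axis, in the control section (blue) and the transgenic section (red), grouped as ligands, receptor chains, transducer and feedback inhibitor. Points are 1 section each and bars are 95% Poisson intervals; Ctf1 is the only gene whose transgenic interval lies below its control interval.

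Among the ligands, Ctf1 (ENSMUSG00000042340) encodes cardiotrophin-1, a cytokine named for its growth effect on cardiomyocytes. It was counted 356 times in the control section, which is 24.8 CPM (22.3 to 27.5), and 104 times in the transgenic section, which is 8.03 CPM (6.56 to 9.73). Its level was 3.08-fold lower in the transgenic section (log2 ratio -1.62, interval -1.95 to -1.31). Only 1.37% of the genes tested had a lower ratio. When each section was split into 4 quadrants, Ctf1 lay between 24.2 and 25.3 CPM in the control and between 6.5 and 10.2 CPM in the transgenic section, so the quadrants of the sections did not overlap. The share of all genes without such overlap was not computed, so quadrants here and below describe the spread inside each section only. At least 1 Ctf1 UMI was found in 24.4% of control spots (307 of 1256, interval 22.1% to 26.9%) and in 10.7% of transgenic spots (99 of 924, interval 8.79% to 12.9%). After every spot was thinned to the same 8134 UMIs (140 shallower spots of the control and 78 of the transgenic section were dropped), the shares were 18.0% and 6.57%, in the same order.

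Il11 (ENSMUSG00000004371) and Lif (ENSMUSG00000034394) encode interleukin-11, a cytokine linked to fibrosis, and leukemia inhibitory factor. Il11 was counted 12 times in the control (0.835 CPM) and 30 times in the transgenic section (2.32 CPM), a log2 ratio of 1.47 (0.46 to 2.57). Lif was counted 7 times (0.487 CPM) and 28 times (2.16 CPM), a log2 ratio of 2.15 (0.92 to 3.59). Both were thus higher in the transgenic section by more than the counting error. The lowest transgenic quadrant lay above the highest control quadrant for Il11 (1.92 against 1.33 CPM) and for Lif (1.37 against 1.11 CPM). The quadrants of Il6, counted 2 and 7 times, did not overlap either (0.34 against 0.28 CPM), so at such counts this says little. Il11 was found in 0.955% of control and 3.14% of transgenic spots, and Lif in 0.557% and 3.03%, and after thinning in 0.679% and 1.70% and in 0.358% and 1.67%. As a background, 22 genes of other tissues that a heart should lack, such as insulin, rhodopsin and protamine genes, had a median of 9 UMIs in each section and ranged from 4 to 28 in the control and from 2 to 38 in the transgenic section. The median share of spots with a UMI of these genes was 0.717% in the control and 0.974% in the transgenic section, at most 2.23% and 3.90%. The control counts of Il11 and Lif lay within that background, and their transgenic counts lay above all 22 genes but Tg, the thyroglobulin gene, which reached 38.

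Il6 and Osm lay within or below that background in both sections. Il6 (ENSMUSG00000025746), the prototype of the family, was counted 2 times in the control (0.139 CPM) and 7 times in the transgenic section (0.540 CPM), and the interval of its log2 ratio of 1.96 ran from -0.44 to 5.26. Osm (ENSMUSG00000058755), which encodes oncostatin M, was counted 8 times (0.556 CPM) and 12 times (0.926 CPM), a log2 ratio of 0.74 (-0.68 to 2.23). Their shares of spots, 0.159% and 0.758% for Il6 and 0.637% and 1.30% for Osm, lay below the highest shares of the other-tissue genes. A difference of either gene between the sections was not detectable at this depth. Il6, Il11, Lif and Osm together gave 29 control and 77 transgenic UMIs, and the log2 ratio of these sums was 1.56 (0.93 to 2.23). The make-up of the ligand counts differed between the sections, a measure that no scaling of the section totals can change. Ctf1 held 92.5% of the UMIs of the 5 ligands in the control (356 of 385, exact interval 89.4% to 94.9%) and 57.5% in the transgenic section (104 of 181, 49.9% to 64.8%). In the control, each ligand other than Ctf1 lay within or below the other-tissue background, as Il6 and Osm did in the transgenic section. The sums and these shares thus hold an unknown part of background.

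Among the receptor chains, Il6st (ENSMUSG00000021756) was counted 1536 times in the control, 107 CPM (102 to 112), and 2033 times in the transgenic section, 157 CPM (150.2 to 164). It was 1.47-fold higher in the transgenic section (log2 ratio 0.55, 0.46 to 0.65), and 29.1% of the genes tested had a higher ratio. Osmr (ENSMUSG00000022146), the chain for oncostatin M, was counted 260 times, 18.1 CPM (16.0 to 20.4), and 483 times, 37.3 CPM (34.0 to 40.8). It was 2.06-fold higher (log2 ratio 1.04, 0.82 to 1.27), the largest ratio of the 3 receptor chains, and its interval did not meet that of Il6st. Lifr (ENSMUSG00000054263), the chain for LIF and cardiotrophin-1, was counted 213 times, 14.8 CPM (12.9 to 16.9), and 184 times, 14.2 CPM (12.2 to 16.4). Its log2 ratio of -0.06 had an interval from -0.35 to 0.23 that included 0.

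In the quadrants Il6st lay between 98.7 and 122 CPM in the control and between 147 and 169.6 CPM in the transgenic section. Osmr lay between 15.7 and 19.7 CPM and between 33.8 and 42.3 CPM. Lifr lay between 12.2 and 17.0 CPM and between 11.5 and 16.8 CPM. Of the summed UMIs of Lifr and Osmr, Lifr held 45.0% in the control (40.5% to 49.6%) and 27.6% in the transgenic section (24.2% to 31.1%). Of the UMIs of all 3 chains, Il6st held 76.5% and 75.3%. Osmr was found in 18.9% of control spots and 39.2% of transgenic spots, and Il6st in 68.0% and 83.8%. After thinning, Osmr was found in 13.7% and 25.9% and Il6st in 57.6% and 71.5%. The share of Lifr was 15.8% and 18.1% before thinning and 11.6% and 11% after it, so its order turned with thinning.

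**Figure D2:**
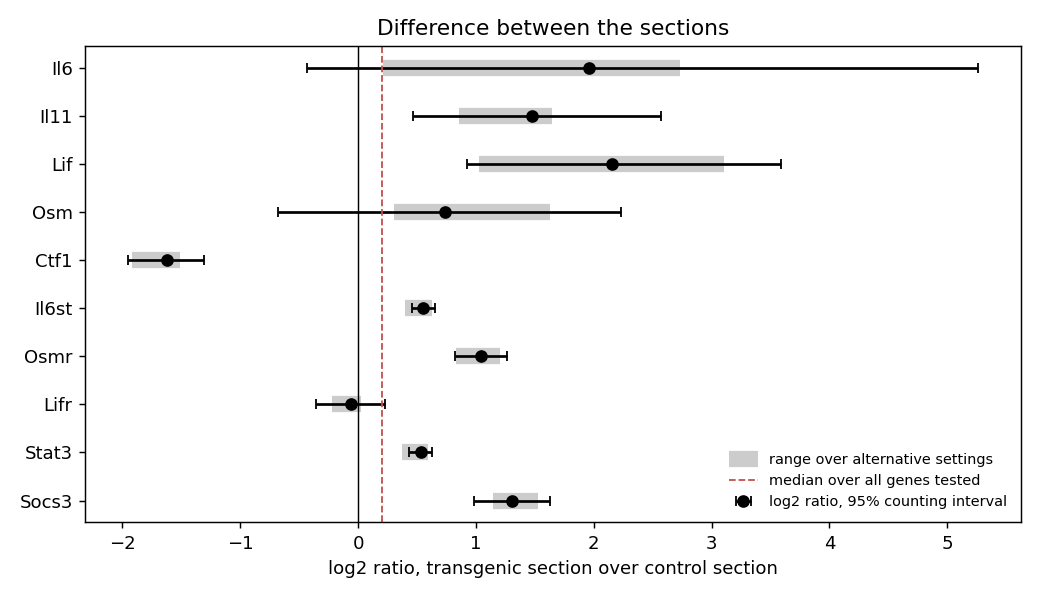
Log2 ratio of the transgenic over the control section for each gene. Points with bars are the ratio and its 95% counting interval, grey bands run from the lowest to the highest ratio under 10 other settings, and the dashed line is the median of all genes tested at 0.20; the intervals of Il6, Osm and Lifr include 0.

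Stat3 (ENSMUSG00000004040) was counted 1490 times in the control, 104 CPM (98.4 to 109), and 1939 times in the transgenic section, 149.7 CPM (143 to 157). It was 1.44-fold higher in the transgenic section (log2 ratio 0.53, 0.43 to 0.63), close to the ratio of Il6st, whose interval it overlapped. Socs3 (ENSMUSG00000053113) was counted 116 times, 8.07 CPM (6.67 to 9.68), and 258 times, 19.9 CPM (17.6 to 22.5). It was 2.47-fold higher (log2 ratio 1.30, 0.98 to 1.63), and 8.45% of the genes tested had a higher ratio. In the quadrants Socs3 lay between 5.59 and 10.2 CPM in the control and between 15.7 and 27.3 CPM in the transgenic section, and Stat3 between 96.3 and 109 CPM and between 137 and 183 CPM. Socs3 was found in 8.76% of control spots (7.25% to 10.5%) and 22.7% of transgenic spots (20.1% to 25.6%), and in 6.83% and 14.3% after thinning. Of the UMIs of Stat3 and Socs3 together, Socs3 held 7.22% in the control (6.0% to 8.60%) and 11.7% in the transgenic section (10.4% to 13.2%).

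Genes of several other cell types and of blood also differed between the sections. Counts here go by the sign of the ratio, and 9636 of all 15236 genes tested were higher. The summed level of 10 fibroblast genes was 6421 CPM in the transgenic section against 2078 CPM in the control, with all 10 higher and none at 0. Of these, Gsn (log2 ratio 0.001, -0.04 to 0.05) and Dpt (0.06, -0.04 to 0.17) had intervals that included 0. The summed level of 6 genes of activated fibroblasts went from 75.7 to 1199 CPM with all 6 higher, and that of 10 macrophage genes from 321 to 631 CPM with 9 higher. The neutrophil list was at 12.7 and 15.4 CPM and the T cell list at 10.4 and 13.4 CPM. The 9 cardiomyocyte genes measured went from 74359 to 41176 CPM with 8 lower, and the 4 erythroid genes from 2145 to 20390 CPM with all 4 higher. The list of stressed cardiomyocytes went from 1413 to 40751 CPM. Endothelial genes were at 1979.5 and 1982 CPM in sum, with 6 higher and 4 lower, from Kdr (log2 ratio -0.92) to Vwf (2.48). The part of these differences in the ratios of the gp130 genes was not tested. In the 50% of spots richest in cardiomyocyte genes, the log2 ratio of Ctf1 was -1.58, that of Osmr 0.83 and that of Socs3 1.18. Without the blood-rich spots they were -1.62, 1.06 and 1.33. Spots were ranked within each section, so these subsets do not match the sections in cell make-up. Cardiomyocyte genes held 5.65% of UMIs in the 20% richest transgenic spots, against 6.56% in the 20% poorest control spots.

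**Figure D3:**
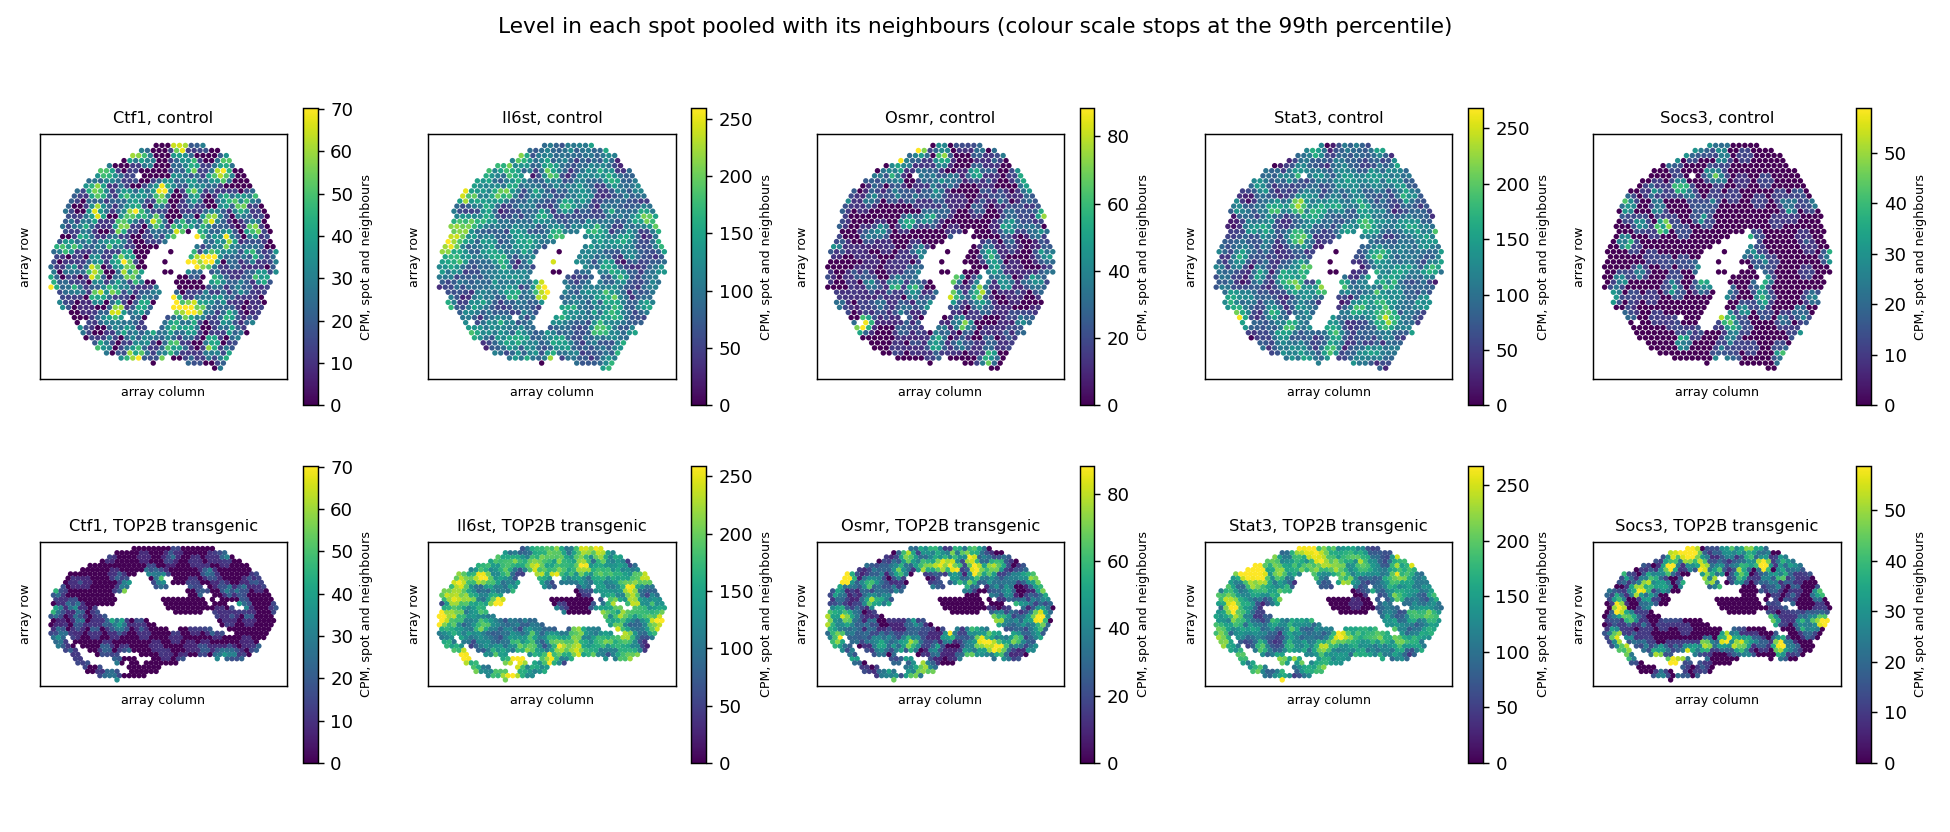
Maps of Ctf1, Il6st, Osmr, Stat3 and Socs3 in the control (top) and transgenic section (bottom), by array column and row, over the 1249 and 921 spots with at least 1000 UMIs. Colour is the CPM of a spot pooled with up to 6 neighbours, on 1 scale per gene that stops at the 99th percentile. The dark group of spots in the transgenic section is rich in erythroid RNA.

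In space, Il6 had no UMI in 77 of 79 control tiles (areas of 4 array rows by 8 array columns with at least 8 spots), Lif in 73, Osm in 72 and Il11 in 67, so these ligands have no pattern to read there. Moran's I, which is 0 when neighbouring spots are no more alike than distant ones and 1 when they are alike throughout, lay between -0.009 for Socs3 and 0.028 for Stat3 over all 10 genes in the control. In the transgenic section it was 0.157 for Stat3 and 0.127 for Il6st, where the median of 2182 genes with 1000 to 9999 UMIs was 0.104. It was 0.054 for Osmr and 0.051 for Socs3, where the median of 7064 genes with 100 to 999 UMIs was 0.0195. Of the latter genes 9.09% had a higher value than Osmr and 10.6% a higher value than Socs3. Ctf1 (0.007) and Lifr (0.015) lay below that median.

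There were 79 such tiles in the control and 65 in the transgenic section. Ctf1 had a median of 24.4 CPM over the control tiles, with a highest tile of 71.9 CPM, and a median of 5.59 CPM over the transgenic tiles, with a highest tile of 30.8 CPM. Socs3 had medians of 6.66 and 17.6 CPM and highest tiles of 28.2 and 58.1 CPM. It was without a UMI in 25 control tiles and 7 transgenic tiles, while Ctf1 was without a UMI in 3 and 15. Il6st had medians of 105 and 156 CPM, and Stat3 of 99 and 142 CPM.

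The 54 blood-rich transgenic spots held 2.28% of the section's UMIs, and Il6st, Stat3, Socs3 and Lifr were lower there than in the other spots. The share of all genes that were lower there was not computed. In the 10% of transgenic spots richest in erythroid genes against the 10% poorest, the median log2 ratio of all genes was -0.42. Most genes were thus lower in that contrast. Its classes are not the 54 spots and the rest, so whether the named genes were lower there by more than other genes was not tested. In the 54 spots Il6st was at 60.95 CPM (18 UMIs) and in the other spots at 159 CPM, a log2 ratio of -1.39 (-2.14 to -0.72). Stat3 was at 54.2 CPM (16 UMIs) and 152 CPM, a log2 ratio of -1.49 (-2.30 to -0.78). Socs3 had 1 UMI and Lifr none, which allows up to 10.2 CPM of Lifr. For the other genes a difference was not detectable at these counts: Ctf1 was at 6.77 and 8.06 CPM (log2 ratio -0.25, -3.32 to 1.64), Osmr had a log2 ratio of -0.89 (-2.34 to 0.24), and Il6 and Lif had 1 UMI each there and Il11 and Osm none. The correlations over the transgenic tiles depended on these few spots. With all spots, Pearson's r over 65 tiles of log2(CPM + 10) was 0.72 between Il6st and Stat3, 0.65 between Stat3 and Osmr and 0.49 between Stat3 and Socs3. Without the blood-rich spots (60 tiles) these values were 0.31, 0.35 and 0.40. In the control, over 79 tiles, they were 0.00, 0.11 and 0.17. The tiles of a section share a library, and they differ in depth and in tissue.

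The genes whose pattern over tiles was most like that of Il6st in the transgenic section were Ddb1, Mt1 and Map4 (r of 0.89 each), where the median r of 2337 genes with at least 1000 UMIs was 0.68. Without the blood-rich spots their r was 0.47, 0.51 and 0.38, the median was 0.06, and the most alike gene was Eef1a1 (0.57). Those most like Stat3 were Itgb1, Picalm and Eif4g1 (0.86 each, median 0.67), and without the blood-rich spots their r was 0.46, 0.35 and 0.28. Cd44 was then the most alike gene (0.54), and the median was 0.03. In the control the highest values were lower, at 0.36 for Igfbp4, 0.35 for Kcng2 and 0.33 for Itgb5 with Il6st, and 0.42 for Scp2, 0.41 for Trp53inp2 and 0.41 for Cd34 with Stat3. With the depth of the tiles themselves, Stat3 had an r of 0.47 in the control and 0.57 in the transgenic section, and Il6st of -0.15 and 0.49.

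Osmr and Il6st were higher where fibroblast genes were high, in both sections. Without the blood-rich spots, Il6st was close to the median of all genes in the transgenic section. Spots were ranked by their share of each marker list, and the 20% richest were set against the 20% poorest (250 control and 184 transgenic spots in each class). In the control, Osmr was at 23.9 CPM in fibroblast-rich spots and 13.1 CPM in fibroblast-poor spots, a log2 ratio of 0.86 (0.26 to 1.48) where the median of all genes was 0.08. In the transgenic section it was at 45.3 and 26.9 CPM, a log2 ratio of 0.75 (0.30 to 1.22) where the median of all genes was 0.30, and 0.61 (0.17 to 1.05) without the blood-rich spots. Il6st had log2 ratios of 0.42 (0.19 to 0.66) in the control and 0.47 (0.25 to 0.69) in the transgenic section, and the latter was 0.27 (0.06 to 0.48) without the blood-rich spots, where the median of all genes was 0.23. Stat3 had a ratio of 0.40 (0.18 to 0.62) in the fibroblast-rich spots of the transgenic section. Without the blood-rich spots it was 0.24 (0.03 to 0.46), close to that median of 0.23. Fibroblast-rich spots lay at the tissue edge more often than poor ones, 42.0% against 7.60% in the control and 35.9% against 16.8% in the transgenic section. Edge spots, those with fewer than 6 neighbours under tissue, had more Osmr than interior spots in the control (25.3 against 16.9 CPM, log2 ratio 0.58, 0.11 to 1.03), where the median of all genes was 0.04. In the transgenic section the Osmr values were 33.0 CPM at the edge and 39.0 CPM inside it (-0.24, -0.55 to 0.06).

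Osmr was also higher in spots rich in the stressed cardiomyocyte list, which holds genes such as Nppa, Myh7 and Ankrd1. The list's share was 0.33% in rich control spots and 2.01% in poor transgenic spots, so the classes of the sections are unlike. In the control, Ankrd1 held 12351 of the list's 20315 UMIs and Myh7 483. The name of the list is thus not a state of the control spots. The log2 ratio of rich over poor spots was 0.74 (0.18 to 1.31) in the control and 0.64 (0.18 to 1.12) in the transgenic section, where the medians of all genes were 0.04 and 0.13. In the 10% richest against the 10% poorest spots these values were 0.78 (-0.03 to 1.63) and 0.43 (-0.24 to 1.14), so the difference was no longer beyond the counting error. In cardiomyocyte-rich spots of the transgenic section Osmr was lower (log2 ratio -0.49, -0.95 to -0.04), as was Il6st (-0.31, -0.53 to -0.09), and the median of all genes was -0.12. Without the blood-rich spots these ratios were -0.58 (-1.02 to -0.14) and -0.40 (-0.61 to -0.19), and the median of all genes was -0.22. Stat3 (-0.39, -0.61 to -0.18) and Socs3 (-0.74, -1.41 to -0.09) were then lower too. With all spots, Lifr had a ratio of 0.92 (0.08 to 1.82) in cardiomyocyte-rich spots, on 38 and 18 UMIs. It was 0.29 (-0.43 to 1.01) without the blood-rich spots. For Ctf1 the interval of the ratio included 0 for all 11 marker lists in both sections.

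Stat3, Socs3, Osmr and Il6st were all higher where genes of activated fibroblasts, such as Postn and Tnc, were high in the transgenic section. Stat3 was at 181 and 121 CPM in rich and poor spots, a log2 ratio of 0.58 (0.36 to 0.80), and Socs3 at 28.9 and 16.4 CPM, a log2 ratio of 0.82 (0.24 to 1.43). Osmr had a ratio of 0.62 (0.20 to 1.05) and Il6st of 0.51 (0.29 to 0.73), and the median of all genes was 0.23. Il11 was counted 11 times in the rich spots and 0 times in the poor ones. Its counts were 11 and 1 without the blood-rich spots (log2 ratio 3.26, 0.48 to 8.69). Mesothelial-rich and mesothelial-poor spots then held 8 and 1 (3.19, 0.29 to 8.66), and for the other lists the interval included 0. A higher Il11 count was thus not particular to spots rich in activated fibroblast genes. Without the blood-rich spots the ratios of Stat3 and Socs3 were 0.47 (0.26 to 0.68) and 0.76 (0.19 to 1.36), and the median of all genes was 0.17. In the control, where the activated fibroblast list was at 75.7 CPM, the ratios of Stat3 and Socs3 were 0.01 (-0.23 to 0.25) and -0.30 (-1.24 to 0.63). The list's share was 0.022% in rich and 0% in poor control spots, against 0.28% and 0.017% in the transgenic section. Few list UMIs thus separated the control classes, and the sections cannot be set against each other on this point. In macrophage-rich transgenic spots Stat3 had a log2 ratio of 0.52 (0.29 to 0.75), where the median of all genes was 0.21, and 0.29 (0.07 to 0.50) without the blood-rich spots, where that median was 0.11. In the control the ratio was 0.04 (-0.21 to 0.28). Control spots rich in smooth muscle and pericyte genes had a Stat3 ratio of 0.34 (0.09 to 0.59). Their Socs3 ratio was -1.09 (-2.08 to -0.15), on 15 and 31 UMIs, and the median of all genes was 0.03. Il6st had ratios of 0.29 (0.05 to 0.53) in macrophage-rich control spots and 0.22 (0.005 to 0.43) in transgenic ones without the blood-rich spots. The medians of all genes were 0.03 and 0.11. Socs3 was lower at the edge of the transgenic section than inside it (15.4 against 21.7 CPM, log2 ratio -0.50, -0.95 to -0.06) and had a ratio of 0.60 (-0.13 to 1.27) in the control. Without the blood-rich spots the transgenic ratio was -0.48.

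**Figure D4:**
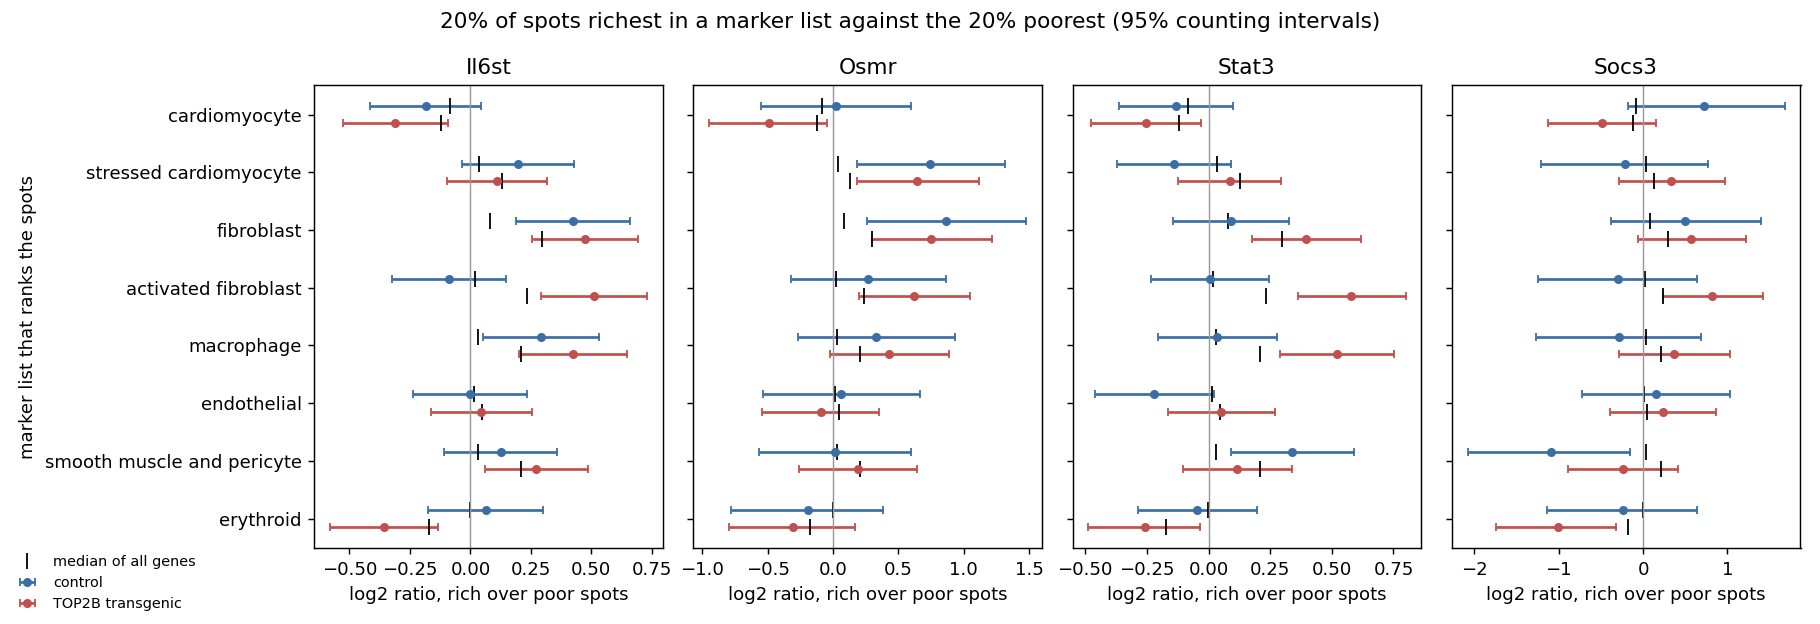
Log2 ratio of Il6st, Osmr, Stat3 and Socs3 in the 20% of spots richest in a marker list over the 20% poorest, in the control (blue) and transgenic section (red), with 95% counting intervals; black ticks are the median of all genes. Osmr lies above 0 in fibroblast-rich spots and in spots rich in the stressed cardiomyocyte list, in both sections. The latter list's share was 0.33% in rich control spots and 2.01% in poor transgenic spots.

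The rest of the pathway was read from 5 lists, whose counts stand against 9636 of 15236 genes higher, 13.7% at least 2-fold higher and 5.61% at least 2-fold lower over all genes. Of 6 further ligand genes, 4 had at least 20 UMIs. All 4 had a log2 ratio above 0, 2 of them with an interval above 0 and 1 past 2-fold. Clcf1, which encodes cardiotrophin-like cytokine factor 1, was counted 40 times in the control (2.78 CPM) and 162 times in the transgenic section (12.5 CPM), a 4.49-fold difference (log2 ratio 2.17, 1.66 to 2.71). It was found in 3.11% of control spots and 15.8% of transgenic spots, and in 2.05% and 9.82% after thinning. Its quadrants ran from 2.22 to 3.33 CPM and from 9.06 to 15.04 CPM. Ebi3, Cntf and Ctf2 had log2 ratios of 0.74 (-0.02 to 1.51), 0.72 (0.01 to 1.45) and 0.15 (-1.27 to 1.57). Ctf2 was counted 10 times in each section, within the range of the other-tissue genes.

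Of 6 further receptor genes, 5 were measured and 4 had at least 20 UMIs, and 3 of these were higher and 1 lower. Cntfr, the receptor through which CLCF1 and ciliary neurotrophic factor join gp130 to LIFR, was counted 37 times (2.57 CPM) and 77 times (5.94 CPM), a log2 ratio of 1.21 (0.62 to 1.81). Il6ra and Il11ra1, the chains that bind IL-6 and IL-11, had log2 ratios of 0.81 (0.45 to 1.18) and 0.33 (0.23 to 0.44), and Il27ra one of -0.29 (-1.28 to 0.68). Cntfr, like the ligand gene Clcf1, was thus higher by more than the counting error, while Lifr, the chain it works with, was not.

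The kinases, STATs and adaptors went both ways, with 4 of 9 genes higher and 5 lower and a median log2 ratio of -0.52. Stat5a, a relative of Stat3 that serves other cytokine receptors, was at 64.1 CPM (922 UMIs) in the control and 20.9 CPM (271 UMIs) in the transgenic section, a 3.07-fold difference (log2 ratio -1.62, -1.82 to -1.42). Gab1 and Stat5b had log2 ratios of -0.93 (-1.12 to -0.74) and -0.90 (-1.01 to -0.79). Shc1, an adaptor of growth factor receptors, was 2.27-fold higher (log2 ratio 1.18, 1.05 to 1.32). The kinase genes went both ways: Jak2 and Tyk2 had log2 ratios of 0.35 (0.09 to 0.62) and 0.28 (0.02 to 0.53), while Jak1, named beside them after its values were seen, was at 176 and 112 CPM (-0.65, -0.74 to -0.55).

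Of 9 further feedback and inhibitor genes, 8 were higher and 1 lower, with a median log2 ratio of 0.63. Ptpn6, a phosphatase gene of blood cells, was past 2-fold (49 and 106 UMIs, log2 ratio 1.26, 0.76 to 1.78). Ptpn2 and Pias3 had log2 ratios of 0.89 (0.69 to 1.09) and 0.70 (0.42 to 0.98). Socs1, the closest relative of Socs3 on the list, was counted 62 and 74 times, a log2 ratio of 0.41 (-0.10 to 0.92), and Pias1 had one of 0.16 (-0.12 to 0.44). Cish, a feedback gene of STAT5 signaling, was the lower one, at 193 and 102 CPM (log2 ratio -0.93, -1.02 to -0.83).

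Of 26 genes known as STAT3 or acute phase targets, 22 had at least 20 UMIs. Of these 18 were higher and 4 lower in the transgenic section, 11 were at least 2-fold higher and none 2-fold lower, and the median log2 ratio was 1.04, where that of all genes was 0.20 and 13.7% of them were at least 2-fold higher. This list, like the others, was chosen with earlier results of these data known, so these counts describe it and test nothing. Serpina3n, a protease inhibitor gene of the acute phase, was counted 34 times in the control (2.37 CPM) and 1917 times in the transgenic section (148 CPM), a log2 ratio of 5.97 (5.48 to 6.5). It was found in 2.71% of control spots and 60.4% of transgenic spots. Lcn2, which encodes lipocalin-2, was counted 27 and 703 times (log2 ratio 4.85, 4.30 to 5.46), and Timp1, an inhibitor of matrix proteases, 27 and 686 times (log2 ratio 4.82, 4.26 to 5.43). The control counts of both lay within the range of the other-tissue genes, as those of Il11 and Lif did. The other 8 past 2-fold were Mt2 (log2 ratio 3.32), Myc (3.04), Cebpd (2.56), Lbp (2.17), Fos (1.58), Il4ra (1.52), Hp (1.34) and Mt1 (1.19), of which Hp rested on 7 and 16 UMIs and had an interval that included 0. The lowest were Fgb (-0.49, -1.88 to 0.82), Cebpb (-0.31, -0.39 to -0.23) and Vegfa (-0.16, -0.24 to -0.09). Many of these genes answer to other signals too, and no value here ties them to STAT3.

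**Figure D5:**
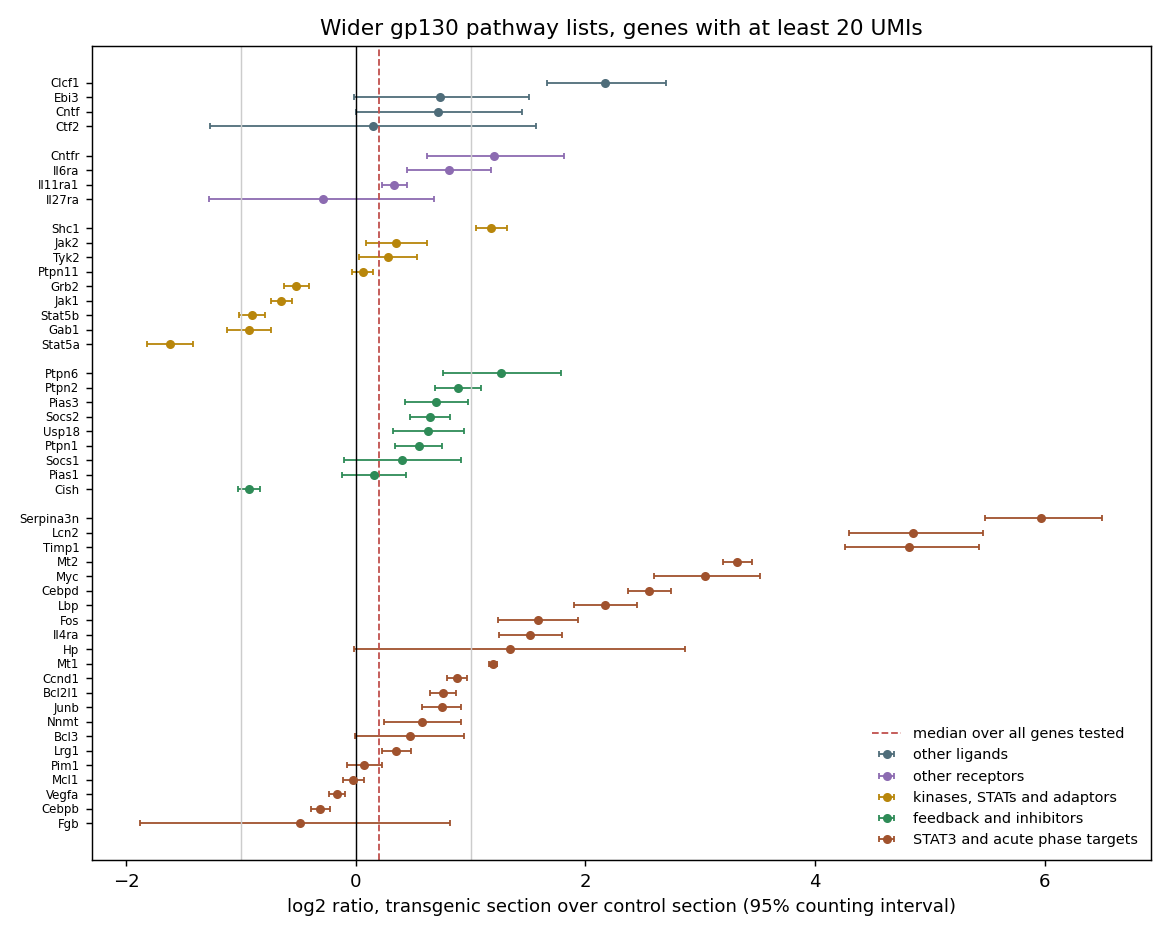
Log2 ratio of the transgenic over the control section with its 95% counting interval for the 48 genes of 5 further pathway lists with at least 20 UMIs, coloured by list. Grey lines mark 2-fold, and the dashed line is the median of all genes tested at 0.20; Clcf1, Cntfr, Shc1, Ptpn6 and 11 target genes lie beyond 2-fold to the right, and Stat5a is the only gene beyond it to the left.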

How the data were processed

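Gene expression was measured in 1 heart section of each genotype with the Visium CytAssist assay for fixed tissue. The deposited UMI counts per gene and spot, over spots under tissue, were made by the authors with Space Ranger 2.0.0 per the file headers, and the submitters' processing notes name the builds GRCm39 and mm39. Moran's I is a score per gene and section that was deposited by the authors, computed by Space Ranger over spots; p-value columns of the same files were not used, nor were the image scale factors. The probe set and its annotation are not given in the sources used here.

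For each section, the UMIs of a gene were summed and scaled to 1000000 UMIs in all (CPM). Levels have exact Poisson intervals, ratios exact conditional binomial intervals and shares of spots or of UMIs Clopper-Pearson intervals, all at 95%. UMIs remove PCR copies, and the intervals cover counting error only. With 14376300 and 12953389 UMIs, the limit that a count of 0 allows (3 counts) was 0.209 CPM for the control section and 0.232 CPM for the transgenic one. Depth limits the 4 rare ligands most. Since each genotype has 1 section, no test across samples was run and no p-value is given. Genes with at least 20 UMIs in both sections together entered counts and medians.

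For shares, spots were thinned to the 10th percentile of depth. Tiles were compared on log2(CPM + 10), and genes with at least 1000 UMIs in a section were searched for the 3 most alike patterns. From each pathway list the 3 highest and 3 lowest ratios and each gene past 2-fold were named. Some genes of these lists are not reported here and were left out of the lists' counts. Members and lists were chosen with earlier results of these data known. edgeR 4.0.16 and DESeq2 1.42.0 (R 4.3.3) supplied other scaling factors only. Further alternatives were totals without the 50 most abundant genes, subsets of spots, the mean over spots, 1 CPM added, other filters, larger tiles and another pseudocount; leaving out blood-rich spots was chosen after seeing the data. Scripts ran in Python 3.11.15 with numpy 2.4.6, scipy 1.17.1, pandas 2.3.3 and matplotlib 3.10.9 and were tested on simulated data. Promoter windows are those of RefSeq on GRCm38.p6, not the build of the files, so no coordinate was joined between them.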

Additional observations from a re-analysis of the deposited data

How the results depend on the processing

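Directions held under all 10 other scalings and subsets of spots for 9 of the 10 genes, and Lifr, whose interval included 0, ran from -0.22 to 0.03. The intervals of Il6 and Osm included 0 as well. These settings reuse the same counts, so they do not settle the direction of either gene. With at least 200 UMIs required, 6 genes remained and 2 were past 2-fold higher, Osmr and Socs3. Osmr was under 2-fold with TMM factors (0.89), DESeq2 size factors (0.89), totals that leave out the 50 top genes (0.96), the 50% of spots richest in cardiomyocyte genes (0.83), the 50% poorest in erythroid genes (0.97) and the mean over spots (0.96). Il11 was at 0.85 with 1 CPM added and 0.87 in the cardiomyocyte-rich spots, where Osm was at 1.63. TMM and DESeq2 factors moved the median of all genes by -0.16 and -0.15, and gave Il6st 0.40 under each and Stat3 0.37 and 0.38. Ctf1 ranged from -1.92 to -1.51, Socs3 from 1.15 to 1.53 and the median of the genes from 0.50 to 0.97. Of 40 shares of spots 16 moved beyond their interval, 14 of them with thinning, as did 16 of 264 values in spots rich in cell type genes, and 6 of 24 tile correlations moved, all without the blood-rich spots. No paired analysis was possible because each genotype has 1 section. Leaving out a replicate was likewise not possible.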
